A study of Mus musculus with 2 samples.

Results

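Polyamine metabolism was followed here through 9 mouse genes that were taken by symbol, in a choice made with earlier results of these data known. They are the 4 genes of synthesis (Odc1, Amd1, Srm and Sms), the 2 genes of breakdown (Sat1 and Smox) and 3 regulators (Oaz1, Oaz2 and Azin1). They are 9 of the 32285 genes in the count matrices, and all 9 were among the 14654 genes with at least 50 unique molecular identifiers (UMIs) over both libraries, which are called the tested genes below.

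Putrescine, spermidine and spermine are small, positively charged polyamines that bind nucleic acids and are needed for protein synthesis and cell growth. Ornithine decarboxylase (Odc1) makes putrescine, S-adenosylmethionine decarboxylase (Amd1) supplies the aminopropyl groups, and spermidine synthase (Srm) and spermine synthase (Sms) add them in turn. Sat1 acetylates spermidine and spermine so that they can be broken down or exported, Smox oxidizes spermine back to spermidine, the antizymes Oaz1 and Oaz2 send ornithine decarboxylase to the proteasome, and Azin1 binds the antizymes and so spares the decarboxylase. Much of this control acts on translation and on protein stability, which RNA counts do not measure.

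GL261 is a mouse glioma cell line of strain C57BL/6, and the labels give its cell type as Astrocytoma. Adherent cells, grown in DMEM with fetal bovine serum, were compared with neurosphere cells, free-floating aggregates collected on day 12 after EGF and FGF (20 ng/ml each) and B-27 had been added to that medium. By the protocol in the labels, both cultures were trypsinized, whereas the study's methods name trypsin for adherent cells only. Neurospheres were also broken up through pipette tips. Both cultures were frozen in medium with DMSO before 10x Genomics single cell 3' sequencing. There was 1 library of each culture, so that no test was run, no difference has a replicate check, and culture, growth factors, dissociation and library cannot be told apart.

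The kept cells numbered 5051 of 5764 called adherent cells, with a median of 8260.0 UMIs, and 4276 of 4951 neurosphere cells, with a median of 13198.5 UMIs. The 2 libraries shared 12 cell barcodes. Leaving out the cells with such a barcode left the log2 fold change of Sat1 at -0.06. Levels are given as CPM, the counts of a gene in 1000000 UMIs of the kept cells, with exact 95% intervals that cover counting error only. A log2 fold change is neurosphere over adherent. Reads came from the 3' ends of transcripts, and each gene was therefore compared with itself and not with other genes by level. Of 9 glioma and astrocyte lineage markers, Aqp4 had 0 UMIs in both libraries and Gfap had 30 and 27 UMIs, while Sox2, Nes, Vim, Olig2, S100b, Slc1a3 and Fabp7 each had at least 1853 UMIs per library. The 8 immune cell markers summed to 634 adherent and 357 neurosphere UMIs, with Ptprc at 1 and 0 UMIs, and the 6 endothelial and fibroblast markers to 94 and 3963 UMIs, of which Dcn held 1 and 3606 while Cdh5 had 0 in both. What part cells of other kinds had in the values below was not tested.

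Oaz1 and Oaz2 are read in 2 frames. Their reading frame meets a stop codon early, and polyamines favour a +1 shift of the ribosome past it. That site is shown because it is the part of these genes that answers to polyamines, and because a count of 3' reads cannot see whether it was passed. In the GENCODE annotation of GRCm38, the site lies in exon 1 of an Oaz1 transcript at chr10:80828280-80828309 and in exon 3 of an Oaz2 transcript at chr9:65686257-65686286, both on the plus strand. The capitals mark the stop codon of the first frame, and 28 of the 30 bases were the same in both genes.
Oaz1: cctcggtggtgctccTGAtgtccctcaccc
Oaz2: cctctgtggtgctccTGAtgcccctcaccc

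Of the 9 genes, Smox was over 2-fold higher in neurosphere cells, beside 21.7% of the tested genes, and none was over 2-fold lower, beside 11.7% of the tested genes. The median log2 fold change of the 9 genes was -0.06 and that of the tested genes was 0.32. Against that median, 2 of the 9 genes (Smox and Oaz2) lay above and 7 lay below. Scaling by TMM (a trimmed mean of M-values) moved all values by -0.22, and a total that still held the mitochondrial and ribosomal genes moved them by 0.22, so the sign of a log2 fold change within 0.22 of 0 (Sat1, Odc1 and Oaz1) depended on the scaling. Distances from the median of the tested genes did not. They were 0.95 for Smox, 0.14 for Oaz2, -0.01 for Amd1, -0.30 for Odc1, -0.39 for Sat1 and Oaz1, -0.73 for Azin1, -1.13 for Sms and -1.23 for Srm.

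**Figure D1:**
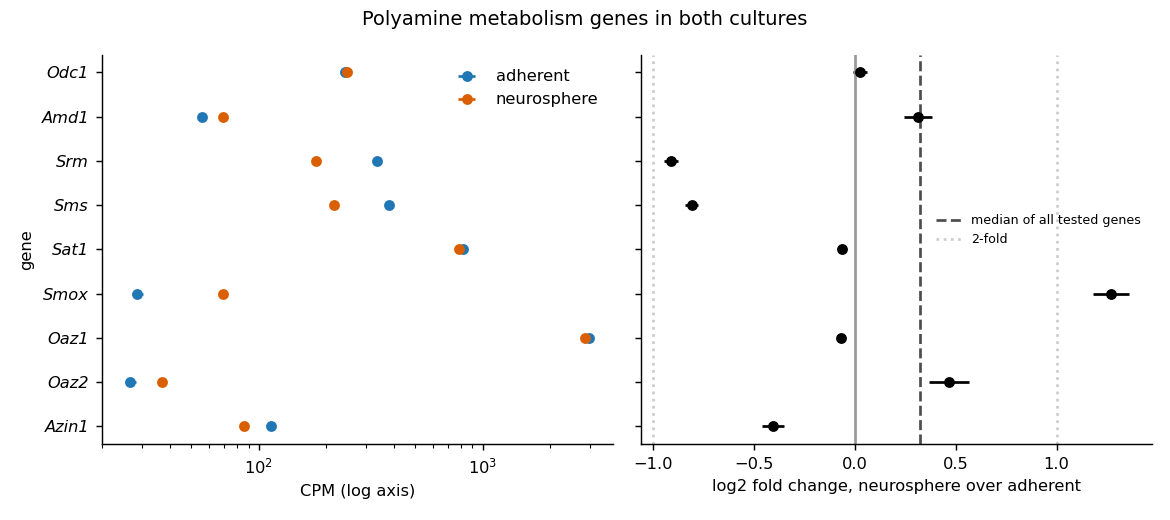
Left, CPM of each of the 9 genes in adherent (blue) and neurosphere (orange) cells on a log axis. Right, the log2 fold change of neurosphere over adherent cells. Bars are exact 95% intervals for counting error in 1 library per culture, the dashed line is the median of the tested genes (0.32) and dotted lines mark 2-fold. Smox lies beyond 2-fold, while Srm and Sms lie farthest below the dashed line.

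The genes of the last steps of synthesis were lower in neurosphere cells. Srm (ENSMUSG00000006442, chromosome 4, 148591503 to 148594993, plus strand) was at 339 CPM (333 to 344) in adherent cells against 180.6 CPM (177 to 184) in neurospheres. Its log2 fold change was -0.91 (-0.94 to -0.87), 1.23 below the median of the tested genes. Sms (ENSMUSG00000071708, chromosome X, 157443855 to 157492287, minus strand) was at 380.2 CPM (375 to 386) and 217 CPM (214 to 221), a log2 fold change of -0.81 (-0.84 to -0.77) and 1.13 below that median. The ratio of Srm to Sms UMIs was 0.891 in adherent and 0.831 in neurosphere cells. Summed over all kept cells, the synthases of spermidine and spermine thus differed by much the same amount. Among cells with little cell cycle RNA, the difference was larger for Srm than for Sms, as given below. Under TMM scaling, both were over 2-fold lower, with log2 fold changes of -1.12 and -1.02, beside 14.5% of the tested genes.

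In UMIs summed over all kept cells, the first enzymes did not share that difference. Odc1 (ENSMUSG00000011179, chromosome 12, 17544794 to 17551505, plus strand) was at 244 CPM (239 to 248) in adherent cells against 248 CPM (244 to 252) in neurospheres, and the interval of its log2 fold change, -0.01 to 0.06, held 0. With every cell given the same weight, it was at -0.19, and in cells thinned to 5000 UMIs at -0.18. Under the 16 alternatives given at the end, its sign stayed the same in 11. Amd1 (ENSMUSG00000075232, chromosome 10, 40287458 to 40302186, minus strand) was at 55.9 CPM (53.7 to 58.1) and 69.4 CPM (67.4 to 71.5), a log2 fold change of 0.31 (0.24 to 0.38), which is the median of the tested genes to within 0.01. Among cells with little cell cycle RNA, Amd1 was at -0.17 with an interval that held 0, and Odc1 was at -1.002, as given below. As a measure that no scaling can move, the ratio of Odc1 to Srm UMIs was 0.720 in adherent and 1.37 in neurosphere cells, and that of Amd1 to Srm 0.165 and 0.384.

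RefSeq promoter sequences (GRCm38.p6) were at hand for 7 of the 9 genes, Srm and Azin1 not among them. The 250 bases before an Sms start site are shown because Sms had the lowest log2 fold change among the genes with a sequence at hand, and those before the Sat1 start site because Sat1 had the highest variance over mean between cells. Both are on the minus strand, Sms at chrX:157492288-157492537 and Sat1 at chrX:155216450-155216699. Searched on both strands were CACGTG (the E-box that MYC binds), TGACNNNGC (the core of the antioxidant response element), the TATA box (TATAAA), the CCAAT box and the cAMP response element (TGACGTCA). Capitals mark matches. The Sms window shown here held an E-box 196 bases and a CCAAT box 231 bases before the start site. Another Sms window, at chrX:157491369-157491618, held none of the 5 motifs and is not printed because an annotated exon lies in it. The Sat1 window held none of the 5 motifs. Among the other genes, Oaz1 had a CCAAT box at -140 and an antioxidant response element core at -13, by first base relative to the start site. Its TATAAA began at -3 and ran across the start site. Smox had an antioxidant response element core at -193. Over the 300 bases of each of 32851 promoters in the same table, the E-box was in 7.15%, the antioxidant response element core in 12.4%, the TATA box in 13.6%, the CCAAT box in 37.4% and the cAMP response element in 1.79%. A match is a run of letters and no evidence that a factor was bound.
Sms: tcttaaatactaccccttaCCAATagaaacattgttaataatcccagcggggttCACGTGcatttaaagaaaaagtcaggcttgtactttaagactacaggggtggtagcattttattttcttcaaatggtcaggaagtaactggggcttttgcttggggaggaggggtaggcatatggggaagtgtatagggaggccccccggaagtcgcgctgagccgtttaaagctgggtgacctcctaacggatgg
Sat1: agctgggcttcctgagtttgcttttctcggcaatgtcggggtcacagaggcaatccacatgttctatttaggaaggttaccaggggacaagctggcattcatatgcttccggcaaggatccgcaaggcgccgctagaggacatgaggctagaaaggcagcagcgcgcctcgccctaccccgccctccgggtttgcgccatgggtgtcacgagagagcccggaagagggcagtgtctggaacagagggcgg

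In breakdown, the 2 genes differed. Sat1 (ENSMUSG00000025283, chromosome X, 155213132 to 155216449, minus strand) was at 816 CPM (808 to 824) in adherent cells against 781 CPM (774 to 788) in neurospheres. Its log2 fold change was -0.06 (-0.08 to -0.04), 0.39 below the median of the tested genes. Smox (ENSMUSG00000027333, chromosome 2, 131491496 to 131525922, plus strand) was at 28.7 CPM (27.2 to 30.3) in adherent cells against 69.3 CPM (67.3 to 71.3) in neurospheres, 2.41-fold higher, with a log2 fold change of 1.27 (1.18 to 1.36). This placed Smox above 85.1% of the tested genes. The ratio of Sat1 to Smox UMIs was 28.4 in adherent and 11.3 in neurosphere cells.

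When every cell was given the same weight, in place of summing UMIs, the log2 fold change of Sat1 was 0.19 and that of Smox stayed at 1.27. The sign of the Sat1 difference therefore depended on whether deeply sequenced cells counted more, and the values by depth below show where.

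Among the regulators, Oaz1 (ENSMUSG00000035242, chromosome 10, 80826656 to 80829290, plus strand) was at 2990.1 CPM (2974 to 3006) and 2851 CPM (2838 to 2864), with a log2 fold change of -0.07 (-0.08 to -0.06). Oaz2 (ENSMUSG00000040652, chromosome 9, 65668001 to 65690300, plus strand) was at 26.7 CPM (25.3 to 28.3) and 37.0 CPM (35.5 to 38.5), a log2 fold change of 0.47 (0.37 to 0.57). Azin1 (ENSMUSG00000037458, chromosome 15, 38487427 to 38519266, minus strand) was at 114 CPM (111 to 117) and 86.2 CPM (83.9 to 88.4), a log2 fold change of -0.40 (-0.46 to -0.35). The antizyme inhibitor was thus lower in neurosphere cells while Oaz2 was higher. The ratio of Oaz1 to Azin1 UMIs was 26.2 in adherent and 33.1 in neurosphere cells, and that of Sat1 to Oaz1 was 0.273 and 0.274.

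Some of these counts share sequence with other genes. Against GENCODE transcripts, 11 other gene identifiers matched Odc1, 7 matched Amd1, 7 matched Sms (2 of them overlapping entries of the same name), 2 matched each of Sat1 and Oaz2 and 1 matched each of Oaz1 and Azin1 at 95% identity or more over at least 200 bases, nearly all of them processed pseudogenes, whereas none matched Srm or Smox. Among the counted genes, Amd2 matched Amd1 over 3202 bases at up to 100% identity and held 34 and 48 UMIs, beside 2586 and 4508 UMIs of Amd1, so the split between these 2 genes is uncertain. AW146154 matched Odc1 and held 170 and 481 UMIs. The antisense gene Gm49077 overlaps Azin1 and held 49 and 80 UMIs. Whether strand was used in counting is not given in the sources used here, so that it is not known whether reads of this pair were kept apart.

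Thinning every cell to 5000 UMIs, which left 4464 adherent and 4196 neurosphere cells and left out 587 and 80 cells as too shallow, allowed shares of cells to be compared. Srm was detected in 77.4% (76.1 to 78.6) of adherent cells against 48.0% (46.5 to 49.5) of neurosphere cells, and Sms in 80.6% (79.5 to 81.8) and 60.3% (58.8 to 61.8). Before thinning, these shares were 85.0% and 71.0% for Srm and 89.5% and 85.1% for Sms. Both synthases were thus detected in fewer neurosphere cells at equal depth, as in CPM.

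At equal depth, Smox was detected in 12.9% of adherent cells against 27.9% of neurosphere cells, Amd1 in 24.0% and 27.6%, Oaz2 in 13.2% and 18.4% and Azin1 in 41.3% and 32.9%. The unthinned shares were 22.0% and 55.6% for Smox, 37.9% and 55.6% for Amd1, 21.4% and 40.8% for Oaz2 and 58.5% and 63.7% for Azin1. The share of Azin1 was higher in neurosphere cells unthinned and lower at equal depth. Oaz1 was detected in all but 1 cell of each thinned library.

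For Sat1 and Odc1, the shares at equal depth differed while the log2 fold changes over all kept UMIs were near 0. Sat1 was detected in 84.1% of adherent cells against 78.0% of neurosphere cells at equal depth (90.4% and 93.3% unthinned), and Odc1 in 63.7% and 52.5% (77.2% and 75.3% unthinned), although their log2 fold changes lay within the 0.22 that scaling moved. Over the same thinned cells, the log2 fold change was 0.18 for Sat1, opposite to its share, and -0.18 for Odc1, the same way as its share. No order of the cultures was read from these shares. Both libraries come from the same cell line, so there was no cell type lacking these genes in which free RNA could be measured.

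Sat1 was spread more unevenly over cells than genes of like level. In thinned adherent cells it ranged from 0 to 111 UMIs with a median of 3 and a 95th percentile of 13, and in neurosphere cells from 0 to 221 UMIs with a median of 2 and a 95th percentile of 17. Its variance over mean was 7.14 in adherent cells, where the 200 genes nearest in mean had a median of 1.30, and 14.7 in neurosphere cells, where they had a median of 1.80. The 10% of cells with the most Sat1 held 39.6% of its UMIs in adherent and 48.3% in neurosphere cells. By Seurat's standardized variance, Sat1 ranked 22 of 32171 genes in adherent and 86 in neurosphere cells.

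Odc1 followed at a smaller scale. Its variance over mean was 2.19 in adherent and 3.74 in neurosphere cells, beside 1.13 and 1.17 for the genes nearest in mean, and its highest cells had 39 and 38 UMIs. It ranked 272 in adherent and 67 in neurosphere cells by standardized variance. The other 7 genes lay between 0.99 (Oaz2 in adherent cells) and 2.01 (Oaz1 in neurosphere cells), where the genes nearest in mean had medians of 1.04 and 2.39. In the plot of UMIs per cell, the long right-hand ends of Sat1 and Odc1 set them apart from Srm and Oaz1.

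**Figure D2:**
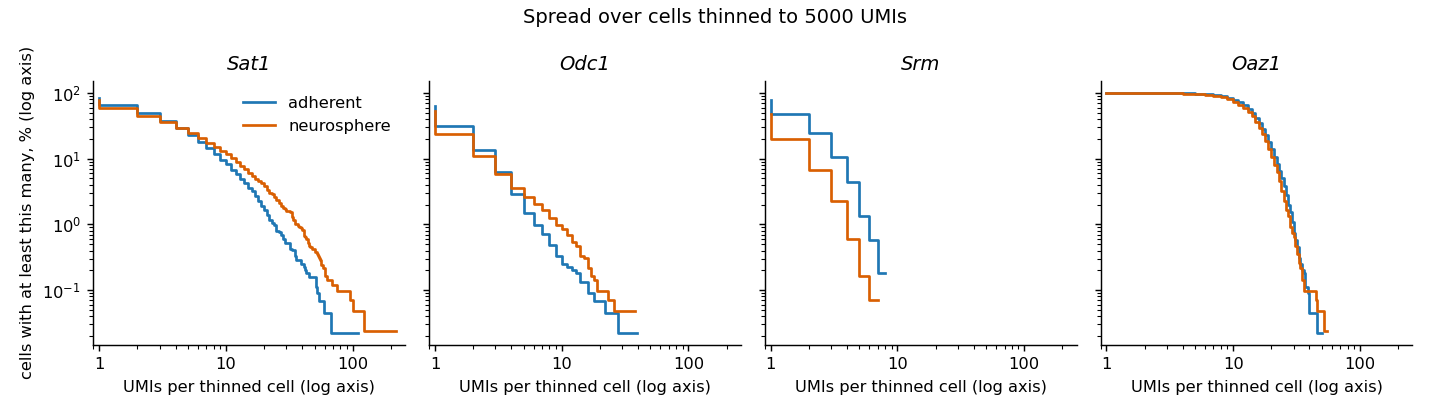
Share of thinned cells (%, log axis) with at least as many UMIs as the x axis gives (log axis) for Sat1, Odc1, Srm and Oaz1 in adherent (blue, 4464 cells) and neurosphere (orange, 4196 cells) libraries. The Sat1 lines reach 111 and 221 UMIs, while those of Srm end at 8 and 7 UMIs.

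Cells were then ordered by their summed UMIs of 42 G1/S phase genes or 52 G2/M phase genes, and the cells with the most (high-cycle cells) were set against those with the least (low-cycle cells). The limits were set at 20% of the cells and ties were kept, so that the low-cycle group by G1/S genes was larger, with 1158 of 4464 adherent and 1006 of 4196 neurosphere cells, and the other groups held 862 to 960 cells. Over all cells, these lists summed to 2380.1 and 3386 CPM (G1/S) and to 8846 and 9291 CPM (G2/M) in adherent and neurosphere cells. Sat1 was lower in the high-cycle than in the low-cycle group of both cultures, although some clusters with much G2/M RNA had Sat1 above the level of their library, as given below. By G2/M genes, it was at 1196 CPM in low-cycle and 646 CPM in high-cycle adherent cells, a log2 ratio of -0.89 (-0.95 to -0.82), and at 1355 and 711 CPM in neurosphere cells, with a log2 ratio of -0.93 (-0.99 to -0.87). By G1/S genes, the log2 ratios were -0.57 and -0.81.

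The synthesis genes and Azin1 had the opposite sign in neurosphere cells. By G1/S genes, Srm was at 67.4 CPM in low-cycle and 213 CPM in high-cycle neurosphere cells, a log2 ratio of 1.66 (1.48 to 1.84), where adherent cells had 300.2 and 375 CPM and a log2 ratio of 0.32 (0.23 to 0.42). Odc1 was at 123 and 245 CPM in neurospheres, with a log2 ratio of 0.99 (0.85 to 1.13), and at 252 and 262 CPM in adherent cells, a log2 ratio of 0.05 (-0.06 to 0.17). The neurosphere log2 ratios of Amd1, Sms and Azin1 were 0.78, 0.41 and 0.55, beside -0.08, 0.03 and 0.24 in adherent cells.

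By G2/M genes, the neurosphere log2 ratios were 1.47 for Srm, 0.92 for Odc1, 0.44 for Amd1, 0.53 for Sms and 0.58 for Azin1. In adherent cells they were 0.03, -0.22, 0.05, 0.04 and -0.22 in the same order. Oaz2 and Smox were lower in high-cycle neurosphere cells, with log2 ratios by G1/S genes of -0.55 and -0.62, and Oaz1 was within 0.19 of 0 in both cultures and on both lists.

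**Figure D3:**
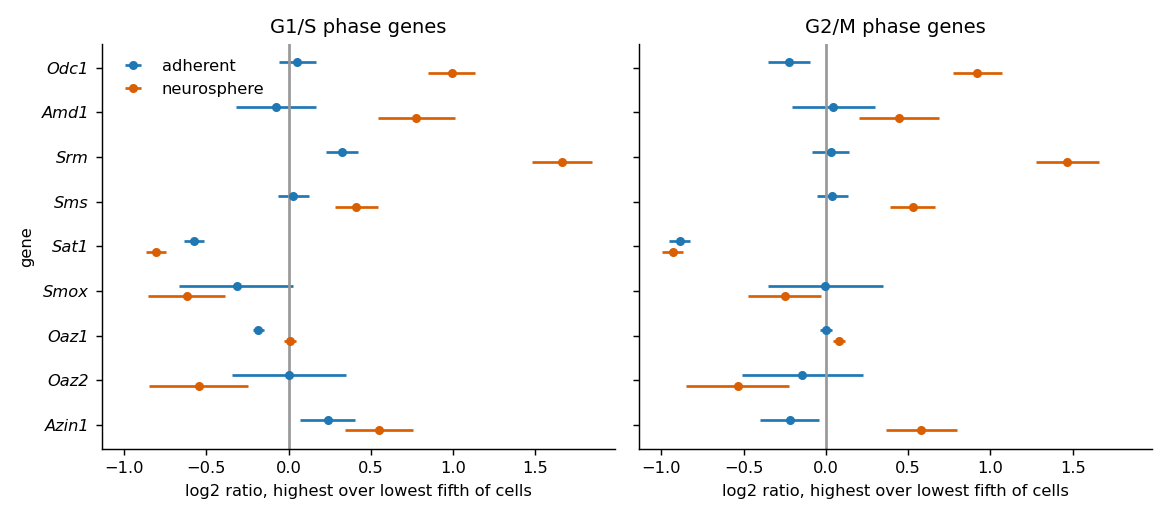
Log2 ratio of each gene's level in high-cycle over low-cycle thinned cells by summed G1/S (left) or G2/M (right) phase UMIs, in adherent (blue) and neurosphere (orange) cells, with exact 95% intervals for counting error. Sat1 lies left of 0 in both cultures, and Srm, Odc1, Amd1, Sms and Azin1 lie right of 0 in neurosphere cells.

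Depth and mitochondrial RNA moved with the same genes in neurosphere cells. In the shallowest 20% and the deepest 20% of neurosphere cells, Sat1 was at 1523 and 576 CPM, Srm at 86.8 and 223 CPM and Odc1 at 131 and 306 CPM. In the 20% with the lowest and the 20% with the highest mitochondrial share, Sat1 was at 633 and 1274 CPM and Srm at 226 and 83.6 CPM. In adherent cells, Sat1 was at 849.7 and 825 CPM by depth and at 806 and 824 CPM by mitochondrial share, but Srm was at 283 and 370 CPM by depth (log2 ratio 0.39, 0.28 to 0.49) and at 355 and 281 CPM by mitochondrial share (-0.34, -0.45 to -0.23). Azin1 was at 127 and 91.7 CPM by depth and at 109.7 and 136 CPM by mitochondrial share in the same adherent cells, so that depth and mitochondrial share moved with these 2 genes there. What part depth or mitochondrial RNA had in the differences by cell cycle was not tested, but the cell cycle ratios were also taken within 3 equal groups of each library by total UMIs.

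Within these groups, Sat1 was lower in the cells with more cell cycle RNA in 6 of 6 comparisons (2 lists in 3 depth groups) in each culture, with log2 ratios of -1.17 to -0.56 in adherent and -0.94 to -0.15 in neurosphere cells. Srm was higher in 6 of 6 in neurosphere cells, by 0.56 to 1.51, while in adherent cells it was higher in 3 of 3 by G1/S genes, by 0.27 to 0.28 and with each counting interval above 0, and lower in 3 of 3 by G2/M genes, by -0.30 to -0.04, with 2 intervals below 0. Sms, Amd1 and Azin1 were higher in 6 of 6 in neurosphere cells, with a counting interval above 0 in 6, 3 and 5 of them, and in 3, 3 and 4 of 6 in adherent cells, with an interval above 0 in 0, 0 and 1. Odc1 was higher in 5 of 6 in neurosphere cells, and was -0.19 by G2/M genes among the deepest neurosphere cells. In adherent cells, Odc1 was higher in 3 and lower in 3, from -0.85 to 0.42, with 2 intervals above 0 and 1 below. These groups were formed after the data had been seen.

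The difference between the cultures was next taken apart by the cell cycle. Among the low-cycle cells by both lists together (914 adherent and 902 neurosphere cells), Srm was at 304 CPM in adherent cells against 70.5 CPM in neurospheres, for a log2 fold change of -2.11 (-2.24 to -1.98). Among the high-cycle cells (915 and 843 cells), it was at 304 and 192 CPM, a log2 fold change of -0.66 (-0.73 to -0.58). By both lists together, where G2/M genes gave most of the UMIs, Srm was thus at the same level in low-cycle and high-cycle adherent cells, which by G1/S genes alone it was not, and the cultures lay farther apart among cells with little cell cycle RNA.

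Odc1 was at 249 CPM in low-cycle adherent cells against 124 CPM in low-cycle neurosphere cells, for a log2 fold change of -1.002 (-1.11 to -0.89), and at 219 and 236 CPM in high-cycle cells, for a log2 fold change of 0.11 (0.03 to 0.18). The like levels of Odc1 over all cells were thus not found among low-cycle cells. The log2 fold change of Sms was -1.30 in low-cycle and -0.82 in high-cycle cells, so that 3 of the 9 genes were over 2-fold lower among low-cycle cells, beside 11.2% of 11467 genes with at least 50 UMIs there. Azin1 had log2 fold changes of -0.68 and -0.18. Amd1 had a log2 fold change of -0.17 (-0.37 to 0.02) in low-cycle and 0.42 (0.28 to 0.57) in high-cycle cells. Its interval lay above 0 in high-cycle cells and held 0 in low-cycle cells. Oaz1 was at -0.16 and -0.05 and Oaz2 at 0.75 and 0.47. Sat1 was at 1248 and 1237 CPM in low-cycle cells, and at 636 and 627 CPM in high-cycle cells, with both intervals of the log2 fold change holding 0.

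Smox had log2 fold changes of 1.19 in low-cycle and 1.23 in high-cycle cells. The groups were set within each library. Low-cycle cells had a median of 19 cell cycle UMIs in adherent and 10 in neurosphere cells, out of 5000, and low-cycle neurosphere cells also had a median mitochondrial share of 4.76%, beside 3.50% in high-cycle ones, and a median depth of 8577.0 UMIs, beside 17271.0. What part these had was not tested. Taking high-cycle cells alone was an alternative added after the data had been seen.

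**Figure D4:**
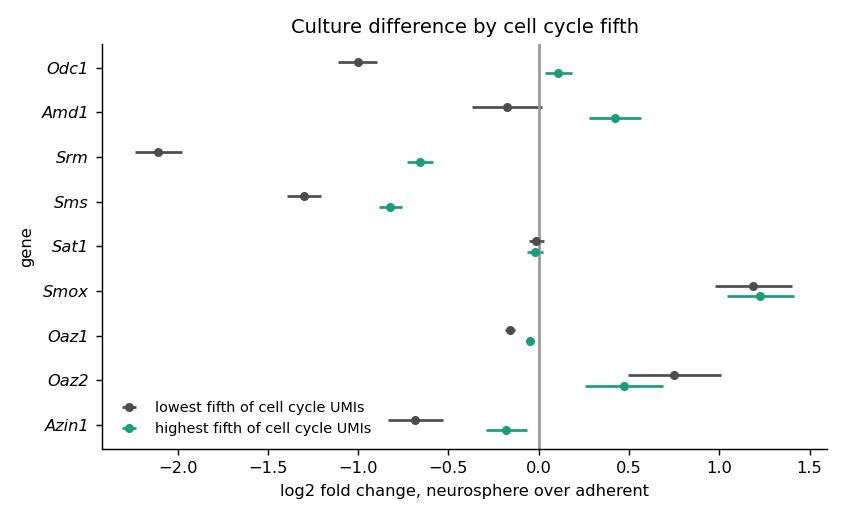
Log2 fold change of each gene, neurosphere over adherent, among the low-cycle (grey) and the high-cycle (green) cells of each library by summed cell cycle UMIs, with exact 95% intervals for counting error. Srm, Odc1, Sms, Amd1 and Azin1 lie farther left in low-cycle cells, while Sat1 and Smox lie at about the same place in both.

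Clustering each library apart in Seurat gave 10 clusters in each. Sat1, Odc1 and Srm were among the variable genes that the clusters were built from, so their levels over clusters are a description. In adherent cells, Sat1 was highest in cluster 4 (leading genes Mt3, Slc47a1 and Gadd45a), at 1540.2 CPM, and lowest in cluster 5 (Cdc20, 2610035D17Rik and Cdkn3), at 419.8 CPM. Cluster 3 (Ube2c, Gm13889 and H2afx) was at 1042 CPM, beside 816 CPM over all adherent cells, and had the deepest cells, with a median of 12170.0 UMIs. Its G2/M genes summed to 10773 CPM, so that it joined more Sat1 than the library as a whole with more G2/M RNA.

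In neurosphere cells, Sat1 was highest in cluster 6 (Enpp2, Mbp and Gm4876), at 1654 CPM, followed by cluster 4 (Ifit3, Zbp1 and S100a6), at 1426 CPM, and lowest in cluster 7 (Hist1h2ap, Hist1h1b and Neil3), at 440.2 CPM. Cluster 0 (Depdc1b, Aspm and Gm3550), which had the most G2/M RNA of the neurosphere clusters at 15702 CPM, was at 915 CPM of Sat1, beside 781 CPM over all neurosphere cells. Odc1 was at 65.9 CPM in cluster 1 (Comp, Pdzd2 and Rgs16), at 514 CPM in cluster 5 (Prss56, Fosl1 and Fbn2) and at 516 CPM in cluster 9 (Cox6a2, Nupr1 and Hmox1), a 7.84-fold range. Srm ran over a 6.96-fold range, from 41.7 CPM in cluster 1 to 291 CPM in cluster 5. Cluster 1 also had the lowest neurosphere levels of Sms (146 CPM), Amd1 (51.1 CPM) and Azin1 (63.5 CPM) and the highest of Oaz2 (66.3 CPM).

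The 2 neurosphere clusters with the most Odc1 differed in Srm, which was at 291 CPM in cluster 5 and 128 CPM in cluster 9. Cluster 9 also had the highest Azin1 (144 CPM) and the lowest Smox (26.0 CPM) of the neurosphere clusters, over 75 cells. The adherent ranges of Odc1 and Srm were narrower. Leaving out adherent cluster 9, a group of 48 cells with a median of 2623.5 UMIs and a mitochondrial share of 12.3%, Odc1 ranged from 176 to 296 CPM and Srm from 271 to 423 CPM, 1.68-fold and 1.56-fold. With that cluster, in which both were at 75.4 CPM, the ranges were 3.93-fold and 5.61-fold. Not all genes shared this order, since without that cluster Amd1 and Sms each had a 1.96-fold range over adherent clusters, beside 1.71-fold and 1.75-fold over neurosphere clusters.

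**Figure D5:**
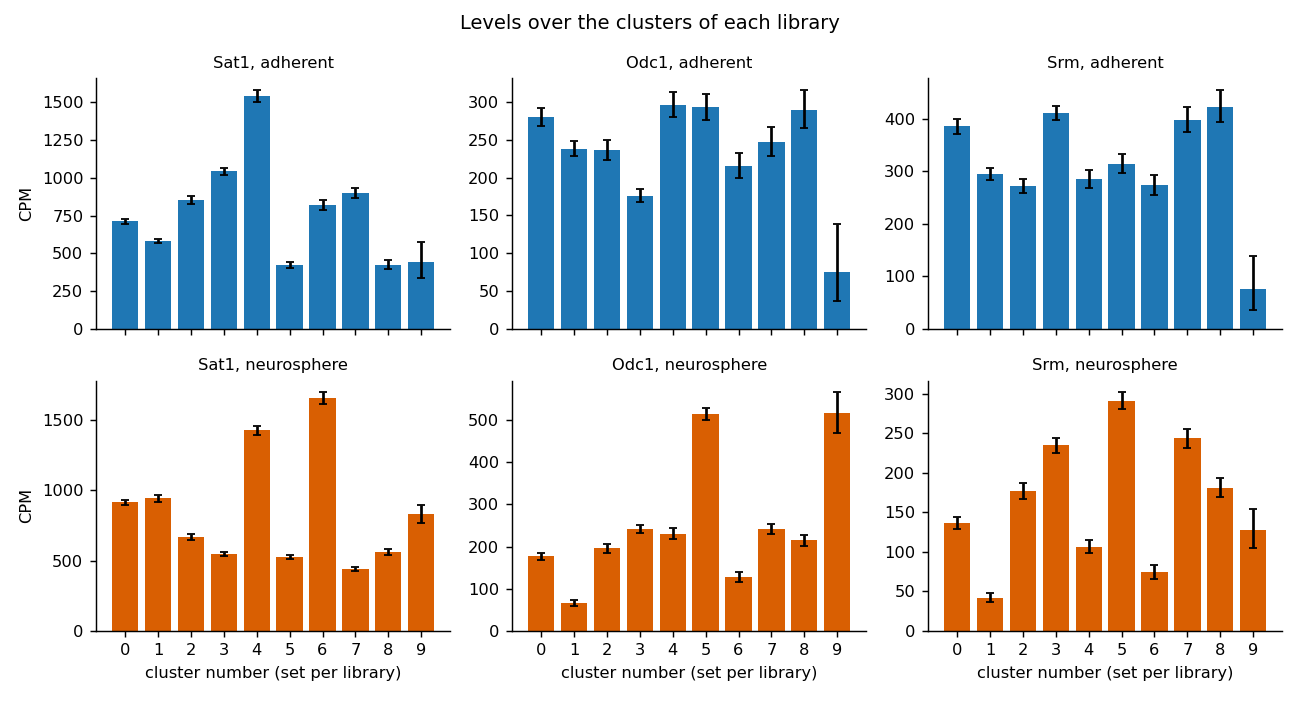
CPM of Sat1, Odc1 and Srm in each cluster of the adherent (blue) and the neurosphere (orange) library, with exact 95% intervals for counting error. Cluster numbers were given within each library and do not correspond between rows. Odc1 and Srm are lowest in neurosphere cluster 1, and Sat1 is highest in neurosphere cluster 6 and adherent cluster 4.

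Across single cells, correlations between the 9 genes were weak. The largest Spearman correlation was 0.18, between Odc1 and Srm in the 4196 thinned neurosphere cells, where the same pair had 0.05 in the 4464 adherent cells. Sat1 and Srm had -0.13 in neurosphere and -0.07 in adherent cells. All cells of a culture share a library, and weak values in sparse counts are given as a description.

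The genes most like Sat1 differed between the cultures. In adherent cells they included S100a6 (0.27), Ftl1 (0.26), Nupr1 (0.25) and Lgals3 (0.24), out of 5709 genes with a UMI in at least 10% of the thinned cells, and the least like were Srsf3 (-0.26), Ncl (-0.26) and Set (-0.23). In neurosphere cells they were Ppp2r2b (0.32), AI506816 (0.27), S100b (0.25), Lhfpl3 (0.24) and Sparc (0.23), out of 6657 genes, and the least like were Npm1 (-0.30), Lgals1 (-0.28) and Cstb (-0.28). None of the genes named here as close to Sat1 was among the 5 closest in both cultures. The summed UMIs of 13 targets of NRF2, a factor of the oxidative stress response, had a correlation with Sat1 of 0.30 in adherent and 0.20 in neurosphere cells. Several other lists were also set against Sat1. The 9 glioma and astrocyte lineage markers had -0.03 in adherent and 0.22 in neurosphere cells. For 14 genes of the integrated stress response, the values were 0.15 and -0.17. Between the cultures, 0 of the 13 NRF2 targets passed 2-fold upward in neurospheres and 5 passed it downward, with a median log2 fold change of -0.67, beside 21.7% and 11.7% of the tested genes and a median of 0.32.

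For Odc1, the closest genes in adherent cells were Ncl (0.15), Npm1 (0.14), Phlda2 (0.13), Set (0.12) and Ebna1bp2 (0.12), and the least like were Dbi (-0.14), Cd9 (-0.13) and Serf2 (-0.12). In neurosphere cells they were Ran (0.27), Hspd1 (0.24), Npm1 (0.24), Ybx3 (0.23) and Ebna1bp2 (0.23), and the least like were Ncald (-0.23), Col11a1 (-0.22) and Macrod2 (-0.22). Npm1 and Ncl encode nucleolar proteins of ribosome assembly. Npm1 and Ebna1bp2 were among the 5 closest in both cultures.

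The wider pathway was read against the same 21.7% and 11.7% of tested genes. Among other polyamine enzymes and regulators, 0 of 5 tested genes passed 2-fold in either direction, and their median log2 fold change was 0.01. Sat2, a relative of Sat1, was at 17.1 and 10.7 CPM (log2 fold change -0.67), Azin2 at 16.7 and 8.92 CPM (-0.91) and the acetylpolyamine oxidase Paox at 4.32 and 6.87 CPM (0.67). Amd2, close to Amd1 in sequence, was at 0.734 and 0.739 CPM (0.01).

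In polyamine transport, 1 of 7 tested genes was over 2-fold higher in neurosphere cells and 1 was over 2-fold lower, with a median log2 fold change of -0.14. Atp13a2, a lysosomal polyamine exporter, was at 6.61 and 16.2 CPM (log2 fold change 1.30), and Cav1, a caveolar protein that takes part in polyamine uptake, at 55.3 and 5.45 CPM (-3.34). In the supply of arginine and ornithine, 2 of 6 were over 2-fold higher and 0 lower, with a median of 0.59. Arg2, a mitochondrial arginase that makes ornithine, was at 0.497 and 6.41 CPM (3.69), and Gatm, which makes the creatine precursor from arginine, was at 65.4 and 315 CPM (2.27).

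In the methionine cycle and salvage, which recycles the by-product of Srm and Sms to methionine, 1 of 11 tested genes was over 2-fold lower and 0 higher, with a median of -0.33. It was Mri1, at 143 and 66.1 CPM (log2 fold change -1.12). Of the 4 genes for hypusine, the modified residue that is made from spermidine on the translation factor eIF5A, 0 passed 2-fold, with a median of -0.06, and Eif5a itself was at 1947 and 1039 CPM (-0.91), the same log2 fold change as Srm. These 4 genes summed to 2211 and 1302 CPM, so that Eif5a held most of their UMIs. Their summed UMIs had a correlation with Srm of 0.21 over adherent and 0.32 over neurosphere cells. The G1/S and G2/M lists had correlations with Srm of 0.28 and 0.27 over neurosphere cells, and of 0.10 and -0.03 over adherent cells.

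MYC is a known activator of Odc1 and Srm. Of 7 tested genes of its family, 4 were over 2-fold higher and 0 were over 2-fold lower. These were Mycl, with 10 and 759 UMIs (log2 fold change 5.76), Mxd1 (2.32), Mxd4 (1.49) and Max (1.31), of which Mxd1 and Mxd4 encode antagonists of MYC, while Myc itself was at 59.2 and 99.8 CPM (0.75) and Mycn had 0 UMIs in both libraries. The median log2 fold change of the 7 genes was 1.31, beside 0.32 over the tested genes. Summed UMIs of the family had a correlation with Odc1 of 0.03 over adherent and -0.07 over neurosphere cells. With Srm, it was -0.01 and -0.08.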

How the data were processed

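Raw UMI counts per gene and called cell were deposited by the authors for 1 adherent and 1 neurosphere library, unnormalized. The submitters' processing notes name Cell Ranger 7.0.1 and mm10. The annotation and the treatment of intronic reads are not given in the sources used here. With the limits in the study's methods, 13 mitochondrial and 101 ribosomal genes were removed, then cells under 1000 UMIs or under 1250 (adherent) or 2250 (neurosphere) genes. This kept 5051 and 4276 cells, fewer than the study states. Filtering cells before removing genes, run as an alternative, kept 5073 and 4300, the numbers of the study. The kept cells held 46290996 and 64943938 UMIs. UMIs were summed per library and divided by these totals. Doublets were not removed. Intervals were exact (conditional for fold changes, Poisson for CPM, Clopper-Pearson for shares, at 95%) and cover counting error only, and a fold against 0 UMIs would use 3 counts. Only those for fold changes were checked, on simulated Poisson counts, which is the model they assume. Cells were thinned with seed 1. Clusters used Seurat 5.3.0 in R 4.3.3 (2000 variable genes, 17 and 18 PCs, resolution 1.0). TMM factors came from edgeR 4.0.16. Python 3.11.15, numpy 2.4.6, scipy 1.17.1 and pandas 2.3.3 did the rest.

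The 9 genes and all lists were chosen with earlier results of these data known. Genes were named by rule: the 9 genes, genes of the wider polyamine lists over 2-fold with at least 50 UMIs and the paralogues Amd2, Sat2, Azin2 and Paox, the 5 most and 3 least correlated genes of Sat1 and Odc1, and the 3 leading genes of each cluster described. A gene that this rule also names is not reported here. Dcn, Eif5a, the genes of the MYC family, Gm49077, AW146154 and the markers fall outside this rule and were chosen after their values were seen.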

Additional observations from a re-analysis of the deposited data

Results flagged for a closer look

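The barcodes that the cell filter left out also held RNA of the 9 genes, which the comparisons do not use. In 713 adherent barcodes there were 1372 UMIs of the 9 genes, and in 675 neurosphere barcodes there were 2579. These barcodes had a median mitochondrial share of 48.8% in adherent and 87.0% in neurosphere cultures. Sat1 was at 793 CPM (708 to 887) in the adherent ones, beside 816 CPM in the kept cells, and at 1425 CPM (1329 to 1526) in the neurosphere ones, beside 781 CPM in the kept cells. Srm was at 130.1 CPM (96.9 to 171) and 106 CPM (81.2 to 136) in them, beside 339 and 180.6 CPM in the kept cells, and Oaz1 at 1719 and 2299 CPM, beside 2990.1 and 2851 CPM. What part the mitochondrial share had in these levels was not tested.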

How the results depend on the processing

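No paired analysis was possible because each culture has 1 library. Each log2 fold change was recomputed under 16 alternatives, of which 2 were added after the data were seen. Under all 16, Smox was the only one of the 9 genes over 2-fold higher (1.05 to 1.49), and Srm (-2.11 to -0.66), Sms and Azin1 stayed below 0. TMM scaling gave -0.28 for Sat1 and for the median of the 9 genes, with 2 genes over 2-fold lower (Srm and Sms, beside 14.5% of the tested genes), and a total with mitochondrial and ribosomal genes gave 0.16 for both, a shift these settings apply to all genes. Sat1 was at 0.028 without the cells over the 95th percentile of UMIs, at 0.19 with each cell weighted equally and at 0.18 in cells thinned to 5000 UMIs. The last 2 settings each put 1 gene (Srm) over 2-fold lower, beside 12.0% and 10.4% of genes. In low-cycle cells, Sat1 was at -0.013, Amd1, then the median gene, was at -0.17 and 3 genes (Srm, Sms and Odc1) were over 2-fold lower, beside 11.2% of genes, and in high-cycle cells Sat1, then the median gene, was at -0.020. The cause of these moves was not tested. Of the 5 genes named as most like Odc1, 2 (adherent) and 3 (neurosphere) were also among the 5 closest in cells thinned to 3000 UMIs. At a resolution of 0.5, the neurosphere cluster range of Smox was 1.91-fold in place of 3.39-fold and that of Azin1 1.48-fold in place of 2.26-fold. With 1 library per culture, more depth narrows the counting intervals but adds no replicate. Levels also differed with depth across cells, as given above.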
